A study of Mus musculus with 6 samples.

Results

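Desmosomes are the spot junctions that fasten the keratin filaments of neighboring epithelial cells to each other, and the cornified envelope is the cross-linked protein shell that forms under the membrane of keratinocytes at the end of their differentiation. Both were examined in the E14.5 mouse lacrimal gland bud through a list of 41 genes, set by gene name and known function, of which 40 had a row among the 23420 genes of the count tables. The list held 14 desmosomal genes, 12 envelope genes, 8 late differentiation genes and 7 S100 genes. Filaggrin (Flg) was the member without a row and was not analysed here. RNA had been sequenced from the laser-captured lacrimal gland epithelium of 3 Control and 3 Pea3 TKO embryonic samples of mixed background. Every sample carried the Le-Cre transgene, which is active in the surface ectoderm of the eye and in the gland that buds from it. Control is given as Le-Cre in the study's account of this sequencing, and the sample titles say WT. The study's methods also list, among its controls, Le-Cre mice heterozygous for the Pea3, Erm and Er81 alleles. Pea3 TKO added Pea3-/- (Etv4), which is missing from all tissues, with Ermfl/fl (Etv5) and Er81fl/fl (Etv1), which are deleted where Cre acts. Whether a sample was 1 embryo or a pool is not given in the sources used here, so p-values measure only the spread between these samples.

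The desmosome has 3 layers. Desmogleins and desmocollins are cadherins that meet their partners across the gap between cells, plakoglobin and the plakophilins are armadillo proteins that bind the cadherin tails, and desmoplakin ties this plaque to keratins. Simple and glandular epithelia depend mainly on Dsg2, Dsc2 and Pkp2 or Pkp3, whereas stratified epithelia add Dsg1, Dsg3, Dsc1, Dsc3 and Pkp1. The envelope is assembled later, when transglutaminases link envoplakin and periplakin, then involucrin, loricrin and the small proline-rich proteins. Several S100 calcium-binding proteins are encoded beside the envelope genes and are also used outside the skin.

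The members lie in a few gene clusters (GENCODE M21, GRCm38). On chromosome 3 there are 13 between positions 90526856 and 93564643, a span of 3.04 Mb that is known as the epidermal differentiation complex and holds the S100 genes, Lor, the Sprr genes, Ivl and Flg. All 7 desmosomal cadherin genes are on chromosome 18 between 19960930 and 20604521. Sbsn, Dmkn and Krtdap lie within 39.6 kb on chromosome 7, from 30751471 to 30791097. Counts were taken per gene, so exons and untranslated regions are not told apart.

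Libraries held between 14194775 and 17860140 counts. Levels are CPM, counts scaled to library size with TMM factors, and at these depths 3 counts, the floor for a gene at 0, corresponded to 0.169 to 0.21 CPM. The effect of the deletions was tested with edgeR (quasi-likelihood F-test, 3 against 3 libraries) on 13087 genes, those kept by a filter on low counts, and a gene was called at a Benjamini-Hochberg adjusted p under 0.05. The targeted genes were lower in each Pea3 TKO library. Etv5 had 961, 1010 and 1200 CPM in Control and 88.2, 152 and 177 in Pea3 TKO, and Etv4 and Etv1 were called lower as well. Of the 8 bud epithelium markers, all detected in the 6 libraries, Epcam lay between 1200 and 1500 CPM and was not called, Cdh1, Pax6, Krt8 and Krt18 were called higher (2.14-, 2.15-, 3.05- and 2.94-fold), and Six2, Sox10 and Sox9 were called lower (log2 fold changes -1.97, -2.43 and -0.53).

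Libraries also differed in ways that the genotype labels do not name. Markers of conjunctiva and cornea, a list of 6 with 5 in the files, summed to 327 CPM in Control replicate 1 against 34.4 and 16.5 in the other Control libraries, and to 984 to 1600 in Pea3 TKO. All 5 were called higher, although Krt12, Krt13 and Muc4, with at most 4 counts in any Control library, could be tested only through Pea3 TKO. All 5 periderm markers were also called higher, summing to 287, 85.2 and 61.6 CPM in Control and 944 to 1540 in Pea3 TKO. Of the 5 basal epidermis markers 4 were called higher (518 to 1460 CPM in Control, 4760 to 6990 in Pea3 TKO) but Trp63 was not (log2 fold change -0.04). The 9 mesenchyme markers summed to 402 and 562 CPM in Pea3 TKO replicates 1 and 2, to 11.9 in replicate 3 and to 15.3 to 113 in Control, with 2 called higher. Y-linked genes were near 0 in Pea3 TKO replicates 1 and 2 (at most 0.445 CPM in sum) and at 136 to 175 CPM in the other 4 libraries. The part of these lists in the results below was not tested. In bulk samples fewer cells of a type and less RNA per cell cannot be told apart.

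Of the 40 members in the files, 29 could be tested, and 26 of these were higher in Pea3 TKO, 1 was lower (Tgm2) and 2 were not called (Dsg1b and Sbsn). Among all tested genes 13.6% were called higher and 11.3% lower. Dsg1a, Dsg1b, Dsg3, Sprr1a, Dmkn and Krtdap, 6 of the tested members, passed the low-count filter only through their Pea3 TKO libraries, where they had to be higher to be seen. Of the 23 members that pass that filter on the Control libraries alone, 21 were called higher and 1 lower, beside 12.6% of all such genes called higher. In 26 of the 29 tested members every Pea3 TKO library lay above every Control library, beside 22.5% of all tested genes. The median log2 fold change was 2.75 over the 29 tested members and 0.01 over all tested genes. Both this median and the non-overlap count include the 6 members tested only through Pea3 TKO. Their log2 fold changes ran from 3.47 (Dsg1b) to 7.68 (Dmkn), which raises the median of the members.

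**Figure D1:**
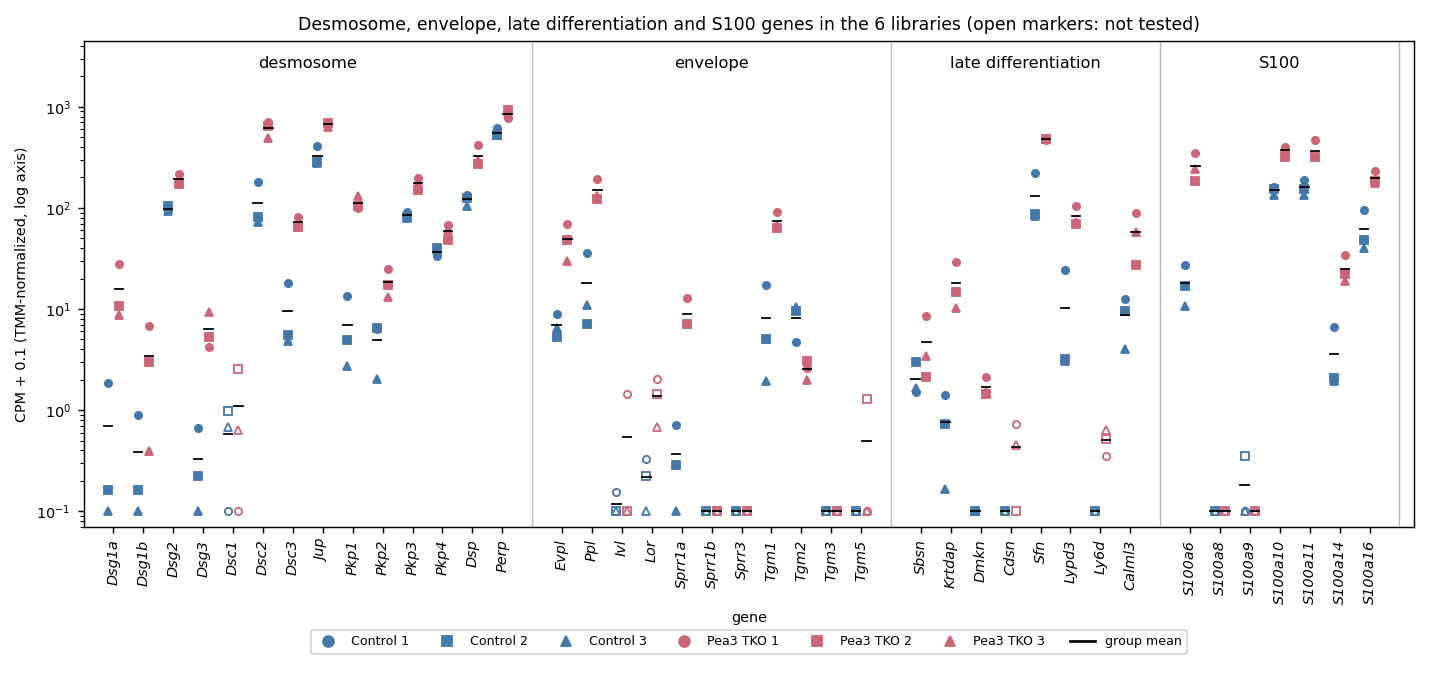
Level of each member in every library, as CPM plus 0.1 on a log axis; circles, squares and triangles are replicates 1, 2 and 3 of Control (blue) and Pea3 TKO (red), black lines are group means, and open markers are genes that were not tested. All red points lie above all blue ones in 26 of the 29 tested genes (filled markers), Dsg1b and Sbsn overlap, Tgm2 is reversed, and Sprr1b, Sprr3, Tgm3 and S100a8 sit at 0 in all 6 libraries.

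Most desmosomal genes were already present in the Control bud, apart from Dsg1a, Dsg1b, Dsg3 and Dsc1. Of 14 genes 13 were tested, 12 were called higher and none lower, with a median log2 fold change of 1.90. Dsg1a, Dsg1b and Dsg3 could be tested only through Pea3 TKO and raise this median. All 10 desmosomal genes that pass the filter on the Control libraries alone were called higher, beside 12.6% of all such genes. The summed level of the 14 genes was 1200 to 1590 CPM in Control and 2940 to 3330 in Pea3 TKO. Leaving out single libraries gave between 9 and 13 genes called higher.

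Among the desmogleins, Dsg2, the form of simple epithelia, had 94.8, 105 and 93.1 CPM in Control and 217, 172 and 184 in Pea3 TKO. The groups did not overlap and the rise was 1.95-fold (log2 fold change 0.97, standard error 0.13, adjusted p = 0.00082). Dsg3, a desmoglein of basal stratified layers, was almost undetected in Control, with 10, 2 and 0 counts, and had 65, 75 and 158 counts in Pea3 TKO. In CPM this was 0.564, 0.125 and 0 against 4.13, 5.24 and 9.28, and the gene was called higher (log2 fold change 4.67, standard error 0.93, adjusted p = 0.00658). Dsg1a, of the desmoglein 1 type found in upper epidermal layers, went from 1.75, 0.0623 and 0 to 28, 10.5 and 8.63 CPM (log2 fold change 4.64, standard error 1.04, adjusted p = 0.0112). Without Control replicate 1 its log2 fold change was 8.63, and the call was lost without Pea3 TKO replicate 1 (adjusted p = 0.0615). Its near copy Dsg1b reached 6.73, 2.87 and 0.294 CPM in Pea3 TKO from 0.789, 0.0623 and 0, and it was not called (adjusted p = 0.0881). Its groups overlapped. It was called with the replicate block (adjusted p = 0.0242) and by DESeq2 (adjusted p = 0.0249), whereas with the Y-linked covariate its log2 fold change was 0.01. Among the Pea3 TKO libraries only replicate 3 had a Y-linked level like that of Control. Here and below, the fit with this covariate therefore compares mainly that library with Control. In the annotation 21.9% of the 100-base windows of Dsg1a transcripts also occur in Dsg1b, and 31.6% of those of Dsg1b in Dsg1a, so the split of reads between them is uncertain.

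Both tested desmocollins were called higher. Dsc2, the form of simple epithelia, had 182, 81.6 and 71.7 CPM in Control and 705, 647 and 494 in Pea3 TKO (5.5-fold, log2 fold change 2.46, standard error 0.33, adjusted p = 0.000843). Dsc3, its stratified counterpart, had 17.9, 5.48 and 4.68 CPM against 80.9, 65.1 and 71.4 (7.69-fold, log2 fold change 2.94, standard error 0.44, adjusted p = 0.00159). In both cases Control replicate 1 was the highest Control library and still lay below every Pea3 TKO library. Without it the log2 fold changes were 3.00 and 3.83. Dsc1, the desmocollin of the upper epidermis, stayed at 0 to 35 counts in all 6 libraries and was not tested.

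Every plaque gene of the list was called higher. Plakoglobin (Jup), shared by desmosomes and adherens junctions, had 405, 287 and 279 CPM in Control and 707, 690 and 638 in Pea3 TKO (2.1-fold, log2 fold change 1.07, standard error 0.15, adjusted p = 0.00133). Desmoplakin (Dsp), the keratin anchor, had 134, 125 and 104 against 418, 272 and 293 CPM (2.71-fold, log2 fold change 1.44, standard error 0.18, adjusted p = 0.000618). No library of either gene crossed into the other group. Pkp1, the plakophilin of stratified epithelia, had 13.2, 4.86 and 2.6 CPM in Control and 99.3, 104 and 132 in Pea3 TKO. Its rise was 16-fold (log2 fold change 4.0, standard error 0.47, adjusted p = 0.000499), and with the Y-linked covariate the value was 4.29 (adjusted p = 0.00415). Pkp3, found in most epithelia, changed from 91.9, 81.2 and 80.2 to 199, 150 and 175 CPM (2.07-fold, adjusted p = 0.000755). Pkp4, which also sits at other cell contacts, rose 1.61-fold (adjusted p = 0.0154) and Pkp2, the plakophilin of simple epithelia and heart, 3.74-fold (adjusted p = 0.0138). The Pkp2 and Pkp4 calls were lost without Pea3 TKO replicate 1, at adjusted p = 0.0596 and 0.0548. Perp, a tetraspan membrane protein of desmosomes and a p63 and p53 target, was the most abundant member of the group and rose least, with 611, 528 and 521 CPM in Control and 776, 925 and 859 in Pea3 TKO (1.54-fold, adjusted p = 0.00559). With the Y-linked covariate 8 desmosomal genes were called, the adjusted p-values of Dsg1a, Pkp2, Pkp4 and Perp being 0.12, 0.222, 0.118 and 0.063 at log2 fold changes of 3.83, 1.39, 0.73 and 0.64.

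**Figure D2:**
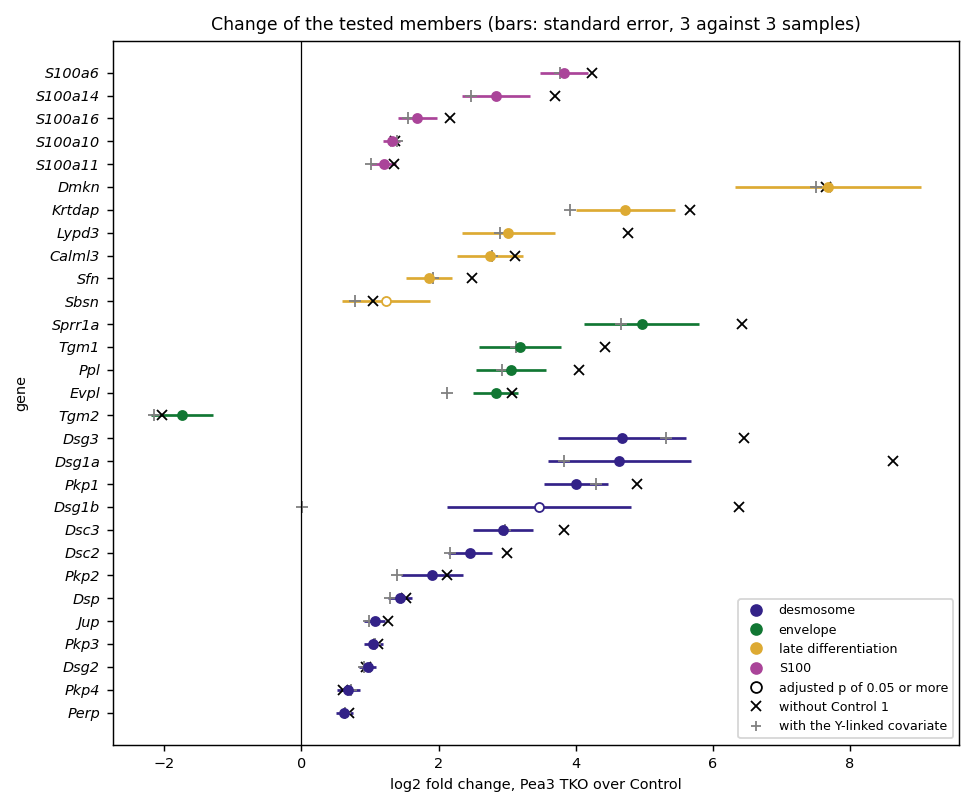
Log2 fold change of Pea3 TKO over Control for the 29 tested members, with bars of 1 standard error (3 against 3 samples); open circles are genes with an adjusted p of 0.05 or more, crosses the fit without Control replicate 1 and plus signs the fit with the Y-linked covariate. Values run from -1.74 (Tgm2) to 7.68 (Dmkn, whose Control libraries are all at 0, so that its value depends on the fitting), and most crosses lie to the right of the circles.

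The make-up of each family was compared within samples, on CPM per kilobase of exon. In Control, Dsg2 made up 95.1, 99.7 and 100% of the desmoglein level, and in Pea3 TKO 78.4, 86.2 and 88.4%, a difference of -13.9 percentage points. The Dsc2 share of the desmocollins was 91.2, 92.9 and 93.3% against 89.9, 90.7 and 87.6% (difference -3.05), and the Pkp2 share of the plakophilins was 3.33, 3.8 and 1.23% against 5.1, 4.31 and 2.74% (difference 1.26). Groups did not overlap for Dsg2 and Dsc2, and they overlapped for Pkp2. Two-sided exact permutation of 3 against 3 samples cannot go below p = 0.10, the value reached for Dsg2 and for Dsc2, with 0.40 for Pkp2. Adjusted over these 3 shares the exact permutation p-values were 0.15, 0.15 and 0.40. Among the other shares, described without a test, Pkp1 went from 7.5, 3.07 and 1.74% of the plakophilin level to 21.6, 28 and 29.9%, and Pkp3 from 72.6, 71.2 and 74.7% to 60.2, 56.2 and 55.2%. Dsg2, Dsc2 and Pkp3 therefore remained the most abundant member of their families in every library.

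**Figure D3:**
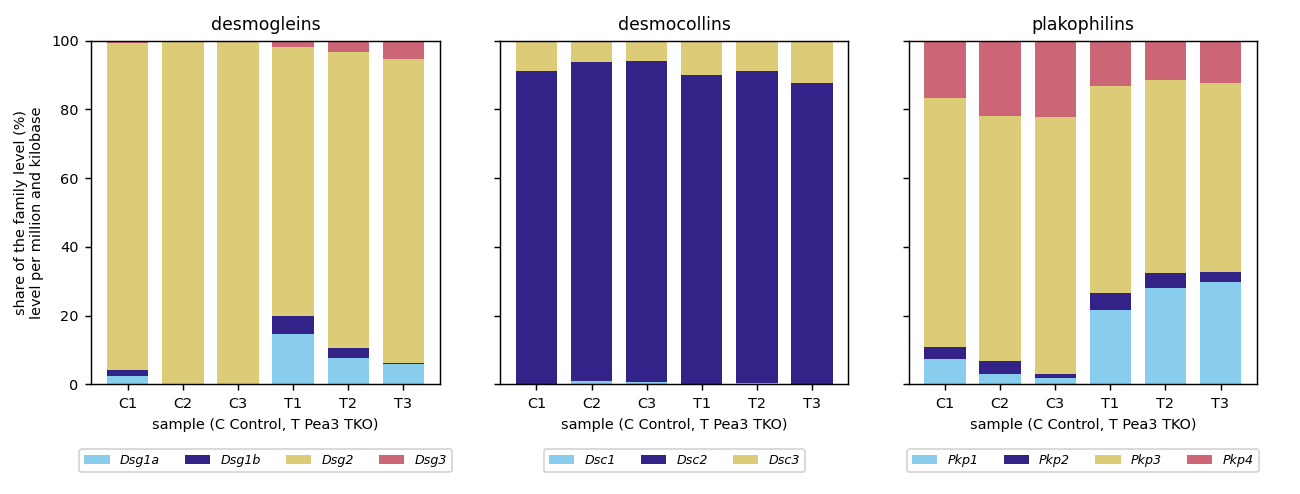
Share of each gene in the summed level (CPM per kilobase of exon) of the desmogleins, desmocollins and plakophilins, 1 bar per sample. Dsg1a takes 14.7, 7.64 and 6.03% of the desmogleins in Pea3 TKO against at most 2.55% in Control, the desmocollin bars differ little, and Pkp1 widens from at most 7.5% to at least 21.6%.

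On the same scale of CPM per kilobase of exon, the order of levels in Pea3 TKO was Perp at 437 ± 38.3 (SD, n = 3), Dsc2 at 117 ± 20.6, Jup at 105 ± 5.59 and Pkp3 at 48.3 ± 6.74. Dsc2 and Jup did not differ beyond their spread there. In Control the order was Perp at 283 ± 25.5, Jup at 50.3 ± 10.9, Pkp3 at 23.3 ± 1.79 and Dsc2 at 21.2 ± 11.6, and the last 2 of these overlapped. Dsp, at 12.5 ± 1.6 in Control, and Dsg2, at 11.8 ± 0.81, were likewise within their spread.

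Envelope genes, unlike the desmosomal ones, were scarce in the Control bud. Of the 11 in the files only 5 could be tested, of which 4 were called higher and Tgm2 lower, with a median log2 fold change of 3.05. Sprr1a, at 4.96, could be tested only through Pea3 TKO and raises this median. Of the 4 that pass the filter on the Control libraries alone, 3 were called higher, beside 12.6% of all such genes. The 11 envelope genes summed to 27 to 67 CPM in Control and 237 to 373 CPM in Pea3 TKO. In CPM per kilobase of exon, the envelope sum was 2.93, 1.49 and 1.43% of the desmosomal sum in Control and 10.4, 6.57 and 6.88% in Pea3 TKO. The largest part of that desmosomal sum was Perp.

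The plakins that start the scaffold were among the best detected. Envoplakin (Evpl) had 8.91, 5.23 and 6.37 CPM in Control and 68.8, 47.9 and 29.9 in Pea3 TKO (7.12-fold, log2 fold change 2.83, standard error 0.33, adjusted p = 0.000484). Periplakin (Ppl), its partner, had 35.5, 7.04 and 10.9 against 195, 121 and 130 CPM (8.3-fold, log2 fold change 3.05, standard error 0.51, adjusted p = 0.00269). Control replicate 1 stood above its companions for Ppl, and without it the log2 fold change was 4.05. Tgm1, the membrane-bound transglutaminase of keratinocytes, had 17.1, 4.99 and 1.82 CPM in Control and 90.7, 62.9 and 67.5 in Pea3 TKO. The groups did not overlap. It rose 9.15-fold (log2 fold change 3.19, standard error 0.60, adjusted p = 0.00482), and with the Y-linked covariate it had an adjusted p of 0.0504 at a log2 fold change of 3.13. Tgm2, the widely expressed tissue transglutaminase, was the single member called lower. It had 4.57, 9.47 and 10.3 CPM in Control and 2.48, 2.94 and 1.88 in Pea3 TKO (log2 fold change -1.74, standard error 0.45, adjusted p = 0.0207). The call was lost when any of Control replicates 2 and 3 or Pea3 TKO replicates 1 and 3 was left out, at adjusted p between 0.0519 and 0.0895. Exons of Tgm2 overlap Rprd1b and Gm20412 on the opposite strand, and no source used here says that strand was used in counting, so their reads cannot be told apart.

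Of the precursors that fill the envelope, Sprr1a alone had enough counts to be tested. Sprr1a, a small proline-rich cross-bridging protein, had 11, 3 and 0 counts in Control and 198, 100 and 119 in Pea3 TKO. That is 0.62, 0.187 and 0 CPM against 12.6, 6.99 and 6.99 (log2 fold change 4.96, standard error 0.84, adjusted p = 0.00305). Loricrin (Lor), the main envelope protein of the epidermis, had 4, 2 and 0 counts against 30, 19 and 10, no overlap but too few counts for the filter, and without a filter its adjusted p was 0.101. Involucrin (Ivl) had 1 count in Control replicate 1 and 21 in Pea3 TKO replicate 1 and was at 0 in the other 4 libraries. Sprr1b, Sprr3 and Tgm3 had no count in any library, and Tgm5 had 17 counts in Pea3 TKO replicate 2 alone.

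The start sites of the members were compared through their promoter sequence. The reason was that envelope genes with a row in the chromosome 3 complex differed in detection while lying close together. RefSeq promoter windows (GRCm38.p6) were at hand for 23 of the 41 members, and the 250 bases before each of their 29 starts were searched on both strands for 5 short motifs. They cover 9 envelope, 6 late differentiation and 5 S100 genes but only 3 of the 14 desmosomal genes (Dsp, Jup and Pkp4), so the shares below describe mainly the other groups. TATAAA, the TATA box, occurred in 31% of the members' windows and in 12.4% of all 32851 windows. TGANTCA, a loose form of the AP-1 site with any base allowed in its middle, occurred in 41.4% against 6.75%. However, 3 windows of the members are alternative starts of Dmkn, 2 of them nearly the same. CGGAAG, an ETS site, occurred in 3.45% against 13.6%, and AACCNGTT, a Grainyhead site, in 6.9% against 1.79%. These shares of the members rest on 1 and 2 genes, too few to read as a difference. CACCC, a KLF site, occurred in 69% against 52%. None of these motifs contains another. Flg, Ivl, Krtdap, Lor, Sprr1a and Sprr1b, 6 of the 23, had a TATA box and a loose AP-1 match in the same window. Such windows made up 20.7% of the members' windows against 1.21% of all. A match is a description of letters and not of binding.

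Of these windows 4 are shown because they set a detected gene (Sprr1a) beside an undetected neighbor with the same pair of motifs (Sprr1b), a late differentiation gene (Krtdap) and a desmosomal gene with none of the 5 motifs (Dsp). They are chr3:92485882-92486131 (minus strand), chr3:92438780-92439029 (minus strand), chr7:30787655-30787904 (plus strand) and chr13:38151044-38151293 (plus strand), each 250 bases written 5′ to 3′ up to the RefSeq start, with TATA box and AP-1 matches in capitals.
Sprr1a: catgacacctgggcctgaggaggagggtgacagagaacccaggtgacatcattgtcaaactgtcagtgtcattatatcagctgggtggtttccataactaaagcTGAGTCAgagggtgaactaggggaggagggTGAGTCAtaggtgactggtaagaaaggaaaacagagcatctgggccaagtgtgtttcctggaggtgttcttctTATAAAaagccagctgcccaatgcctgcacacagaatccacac
Sprr1b: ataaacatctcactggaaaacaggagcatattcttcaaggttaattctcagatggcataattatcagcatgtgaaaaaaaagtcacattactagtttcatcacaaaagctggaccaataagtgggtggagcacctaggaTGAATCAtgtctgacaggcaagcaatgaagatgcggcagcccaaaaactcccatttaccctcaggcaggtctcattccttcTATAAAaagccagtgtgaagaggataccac
Krtdap: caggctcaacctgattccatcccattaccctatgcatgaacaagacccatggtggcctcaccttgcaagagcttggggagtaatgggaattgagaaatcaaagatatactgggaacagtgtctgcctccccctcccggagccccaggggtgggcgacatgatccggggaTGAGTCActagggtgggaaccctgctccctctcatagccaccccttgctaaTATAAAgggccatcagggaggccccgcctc
Dsp: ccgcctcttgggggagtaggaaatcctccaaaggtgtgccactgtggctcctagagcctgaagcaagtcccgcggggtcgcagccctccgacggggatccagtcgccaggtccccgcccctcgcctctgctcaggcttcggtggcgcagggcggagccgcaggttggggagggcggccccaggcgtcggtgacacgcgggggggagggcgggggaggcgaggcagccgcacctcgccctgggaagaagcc
Sprr1a and Sprr1b thus share a TATA box and at least 1 AP-1 match, at -43 and -30 bases for the TATA box, while Sprr1a was called higher and Sprr1b had no count. The AP-1 matches are not the same letters, reading TGAGTCA in Sprr1a and TGAATCA in Sprr1b.

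**Figure D4:**
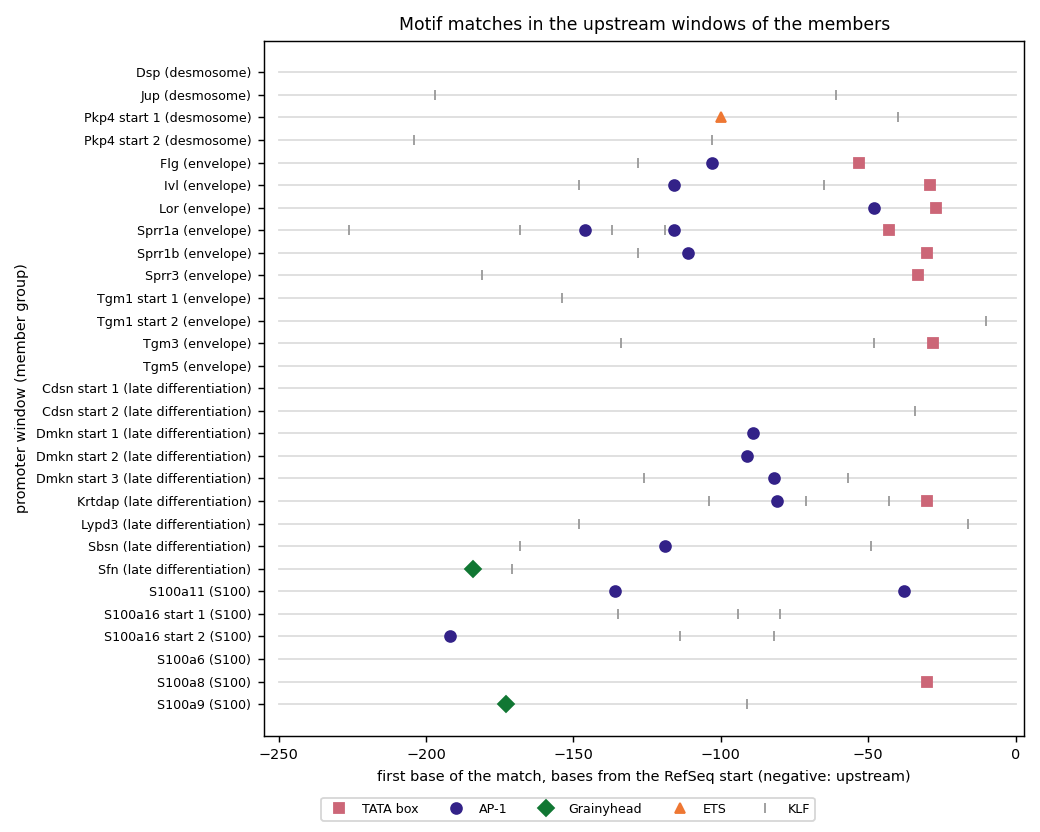
Position of each motif match in the 250 bases before the RefSeq start, in bases from the start, for the 29 windows of 23 members grouped by list. TATA boxes (red squares) fall between -53 and -27 in envelope genes, Krtdap and S100a8, AP-1 matches (blue circles) lie mostly farther upstream, and the 4 windows of Dsp, Jup and Pkp4 hold neither.

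The late differentiation genes encode secreted, surface and intracellular proteins of keratinocytes. All 8 were in the files, 6 were tested, 5 were called higher and none lower, and the median log2 fold change was 2.88. Krtdap and Dmkn, at 4.72 and 7.68, could be tested only through Pea3 TKO and raise this median. Setting Dmkn to the lower bound given below could not move it, since Dmkn stays above the middle value. Of the 4 genes that pass the filter on the Control libraries alone, 3 were called higher. The sum of the 8 genes was 90.6 to 263 CPM in Control and 592 to 708 in Pea3 TKO. Relative to the desmosomal sum, in CPM per kilobase of exon, it was 34.6, 16.5 and 14.9% in Control and 56.6, 45.1 and 50.5% in Pea3 TKO. Sfn was the largest part of the late sum, with means of 81 in Control and 295 in Pea3 TKO. Perp was the largest part of the desmosomal sum, with means of 283 and 437. The ratio therefore follows these genes more than the rest of either group.

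Sfn, the 14-3-3 sigma cell cycle regulator of keratinocytes, was the most abundant of them in CPM per kilobase of exon, at 295 ± 2.21 (SD, n = 3) in Pea3 TKO. It had 223, 86.7 and 82.1 CPM in Control and 472, 476 and 479 in Pea3 TKO (3.64-fold, log2 fold change 1.86, standard error 0.33, adjusted p = 0.004). The study also examined Sfn in sections of these mutants. Lypd3, a GPI-anchored surface protein of suprabasal keratinocytes, had 24.1, 3.12 and 2.93 CPM in Control and 105, 69.9 and 71.7 in Pea3 TKO (8.11-fold, log2 fold change 3.02, standard error 0.69, adjusted p = 0.0116). As with Sfn, Control replicate 1 was far above the other Control libraries, and without it the log2 fold change of Lypd3 was 4.76. With the Y-linked covariate the adjusted p of Lypd3 was 0.101 at a log2 fold change of 2.90. Calml3, a calmodulin-like protein of stratified epithelia, had 12.5, 9.53 and 3.9 CPM against 89.7, 27 and 57.9 (6.72-fold, adjusted p = 0.00352).

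The 3 neighbors on chromosome 7 were all low in Control, and 2 of them were called higher. Krtdap, a secreted protein of differentiating keratinocytes, had 1.3, 0.623 and 0.065 CPM in Control and 29.3, 14.6 and 10.2 in Pea3 TKO (26.4-fold, log2 fold change 4.72, standard error 0.72, adjusted p = 0.00177). Dmkn, dermokine, had no count in Control and 32, 19 and 24 counts in Pea3 TKO, which makes it at least 8.66-fold higher when Control is set to 3 counts per library (adjusted p = 0.00615). Sbsn, suprabasin, had 1.41, 2.87 and 1.56 CPM in Control and 8.38, 2.03 and 3.35 in Pea3 TKO, overlapping groups that were not called (log2 fold change 1.24, standard error 0.64, adjusted p = 0.19). The other two late genes were too low to test. Corneodesmosin (Cdsn), the adhesive protein of the modified desmosomes of the cornified layer, had 10, 0 and 6 counts in Pea3 TKO and none in Control. Ly6d had 4, 6 and 9 counts in Pea3 TKO and none in Control, with an adjusted p of 0.0837 when no filter was applied.

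Among the S100 genes, all 5 that could be tested were called higher, with a median log2 fold change of 1.69 and a sum of 319 to 479 CPM in Control and 1030 to 1480 in Pea3 TKO. S100a6, calcyclin, which is expressed in many epithelial and mesenchymal cells, changed most. It had 27.1, 16.8 and 10.5 CPM in Control and 350, 184 and 242 in Pea3 TKO (14.2-fold, log2 fold change 3.83, standard error 0.35, adjusted p = 0.000131). S100a14 rose 7.13-fold from 6.6, 1.99 and 1.82 to 33.8, 22.3 and 18.8 CPM (adjusted p = 0.00349), and S100a16 rose 3.22-fold from 96.1, 48.2 and 40.4 to 232, 186 and 178 (adjusted p = 0.00303). S100a10, the annexin A2 partner, and S100a11 were abundant in both groups. S100a10 had 160, 154 and 133 CPM in Control and 400, 321 and 390 in Pea3 TKO (2.49-fold, log2 fold change 1.31, standard error 0.13, adjusted p = 0.000211). S100a11 had 190, 154 and 134 against 465, 315 and 320 CPM (2.3-fold, adjusted p = 0.00175), and 34% of its 100-base windows also occur in the predicted gene Gm12854, which leaves its share of reads uncertain. With the Y-linked covariate 3 of the 5 were called, and S100a14 and S100a16 had adjusted p-values of 0.0594 and 0.0558 at log2 fold changes of 2.47 and 1.56.

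S100a8 and S100a9, the calprotectin subunits of neutrophils and inflamed skin, were not part of this rise. S100a8 had no count in any library and S100a9 had 4 counts in Control replicate 2 alone. Of the 9 neutrophil and myeloid markers, Ngp, Camp, Ltf, Mpo and Elane were at 0 in all 6 libraries. The whole list, including Csf1r, Lyz2, Itgam and Ptprc, summed to 13, 0 and 11.7 CPM in Control and 6.92, 0.699 and 0 in Pea3 TKO, with none called.

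**Figure D5:**
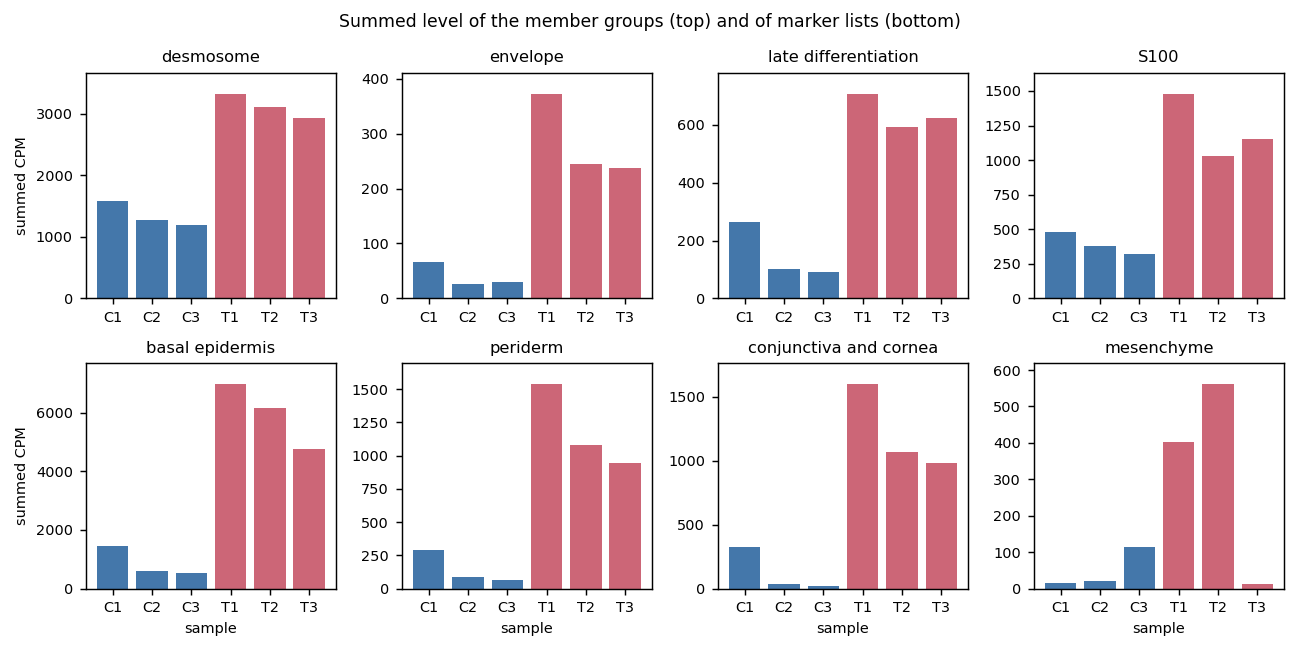
Summed CPM in each library (C1 to C3 Control, T1 to T3 Pea3 TKO) for the member groups in the top row and for marker lists of basal epidermis, periderm, conjunctiva and cornea, and mesenchyme in the bottom row, each with its own scale from 0. Control replicate 1 is the highest Control library in every panel but mesenchyme, where Pea3 TKO replicates 1 and 2 stand out and Pea3 TKO replicate 3, at 11.9 CPM, does not.

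Control replicate 1 had the highest Control level in 23 of the 26 members called higher. Leaving out this highest Control library widened the difference for most of them, so the 13 desmosomal, 4 envelope, 5 late differentiation and 5 S100 genes called higher without it say little about stability. Without it log2 fold changes were 6.45 for Dsg3, 4.89 for Pkp1, 6.42 for Sprr1a, 4.43 for Tgm1, 5.66 for Krtdap, 2.49 for Sfn and 3.70 for S100a14. Leaving out Pea3 TKO replicates 1 and 2 together, the libraries with mesenchyme markers and almost no Y-linked counts, left 1 Pea3 TKO library, which is then assumed to vary as the Control libraries do. That fit called 6 desmosomal, 1 envelope, 1 late differentiation and 3 S100 genes higher and Tgm2 no longer lower, among 315 genes called higher in all. Without these libraries log2 fold changes of genes still called were 4.26 for Pkp1, 2.16 for Dsc2, 2.14 for Evpl and 3.75 for S100a6. Among genes no longer called they were 2.88 for Ppl, 3.09 for Tgm1, 4.65 for Sprr1a, 3.93 for Krtdap and 3.82 for Dsg1a (adjusted p = 0.0737, 0.103, 0.105, 0.0943 and 0.235). That of Dsg1b was 0.05. The Y-linked covariate, which also leaves mainly Pea3 TKO replicate 3 against Control, gave nearly the same values. They were 0.01 for Dsg1b, 2.13 for Evpl and 3.91 for Krtdap, so the 2 fits are not separate checks.

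Genes related to the members but outside the list were read from lists of the same kind. Of 50 other genes of the epidermal differentiation complex in the files, 42 had no count in any library, among them every Lce gene of that list, repetin, hornerin and filaggrin 2. The 3 that could be tested, S100a1, S100a13 and S100a4, were all called higher (adjusted p = 0.00204, 0.00573 and 0.0496), but S100a4, with 3, 0 and 0 counts in Control and 19, 9 and 14 in Pea3 TKO, could be tested only through its Pea3 TKO libraries. Among 22 other envelope and barrier genes 14 were tested and 8 called higher, led by Asprv1, the protease that processes profilaggrin, which had 5.75, 6.04 and 4.36 CPM in Control and 82.4, 54.6 and 45.5 in Pea3 TKO (log2 fold change 3.49, adjusted p = 4.64e-05), the tight junction gene Cldn1 and the annexin Anxa1. None of the 14 was called lower. Klk7 and Alox12b, enzymes of the cornified layer, were at 0 in all 6 libraries. Of 4 other desmosome-associated genes, Kazn (kazrin) was called higher (log2 fold change 1.18, adjusted p = 0.015) and Pnn (pinin) lower (log2 fold change -0.81, adjusted p = 0.002), Dsg1c was not called and Dsg4 had no count.

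Other junction lists held fewer calls. In the hemidesmosome list, the anchors of basal cells to their matrix, 5 of 9 genes were called higher, led by Lama3, Itgb4 and Col17a1, with a median log2 fold change of 0.61. In the adherens junction list 4 of 9 were called higher, led by Cdh1, Pvrl1 and Pvrl4, and none lower, with a median of 0.43. These medians stand beside 1.90 for the desmosomal genes and were not tested against it. The desmosomal value is raised by Dsg1a, Dsg1b and Dsg3, which could be tested only through Pea3 TKO (log2 fold changes 4.64, 3.47 and 4.67). Among 13 tested regulators of stratification 3 were called higher, namely Zfp750, Grhl3 and Ovol1, and Cebpb and Tfap2c were called lower. The median log2 fold change of this list was 0.19. Over all tested genes 13.6% were called higher and 11.3% lower, so these few calls are not read as a trait of the list. Zfp750, a p63 target needed for terminal keratinocyte differentiation, had 25, 7.1 and 7.8 CPM in Control and 100, 88.9 and 92 in Pea3 TKO (log2 fold change 2.81, adjusted p = 0.00158). Of the 4 suprabasal keratins listed, Krt1 and Krt10 were called higher (log2 fold changes 1.90 and 0.84), while Krt2 had no count and Krt77 was at most 0.21 CPM.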

How the data were processed

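The authors captured bud epithelium by laser, amplified its RNA (NuGEN Ovation) and sequenced Illumina TruSeq libraries, and they deposited a raw count table for every sample, with a whole number of reads for each gene and no scaling. The submitters' processing notes name bcl2fastq 2.17, STAR 2.5.2b, featureCounts 1.5.0-p3, DESeq and mm10. Settings, strand and annotation are not given in the sources used here. Amplification can distort low levels, and counting error alone sets the floor of 3 counts.

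From these counts, edgeR 4.0.16 (R 4.3.3) kept 13087 genes by filterByExpr, normalized by TMM and tested Pea3 TKO against Control by quasi-likelihood with genotype as the only term. Adjustment was over all tested genes. The standard error of a log2 fold change was its size over the root of the F statistic. Positions, exonic lengths and shared 100-base windows came from GENCODE M21. The fit was tested on simulated data with 200 of 13087 genes changed. At an adjusted p under 0.05 it recovered 85.9% of 4-fold and 64.8% of 2-fold changes, and 6.88% of its calls were false. Replicates were separate libraries (chi-square per degree of freedom at least 15.7). The numbers 1 to 3 shared by the groups were not shown to pair samples (r of deviations 0.144, -0.064 and 0.045), although so few samples cannot exclude it. The text names every member, the targeted genes and up to 3 called genes of smallest p per other list, with genes at 0, not called or called lower added after their values were seen, and a withheld item is not reported here. Members and lists were chosen with earlier results of these data known. Alternatives covered DESeq2 1.42.0, size factors, filters, thresholds, the replicate block, a Y-linked covariate and left-out samples.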

Additional observations from a re-analysis of the deposited data

How the results depend on the processing

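None of the 29 tested members changed direction under any alternative. Of 405 values, 369 stayed on their side of the threshold, 32 lost a call and 4 gained one. The Y-linked covariate gave 492 genes called higher and 286 lower in all, 3 S100 genes higher and 0 envelope genes lower. Without Pea3 TKO replicates 1 and 2, chosen after seeing the data, 315 genes were called higher and 282 lower in all, with 6 desmosomal, 1 envelope, 1 late differentiation and 3 S100 genes higher and 0 envelope genes lower. At an adjusted p under 0.01, 846 genes were higher, 580 lower and 0 envelope genes lower. With an absolute log2 fold change above 1 as well, 1081 were higher and 483 lower. The cause of these shifts was not tested, apart from the smaller number of samples and the stricter thresholds. Leaving out single samples gave 1131 to 1948 genes higher and 799 to 1417 lower in all, 9 to 13 desmosomal genes higher, and 0 or 1 envelope genes lower, the lowest counts coming without Control replicates 2 and 3 and, for genes called lower, also Pea3 TKO replicate 2 (873), and for desmosomal genes without Pea3 TKO replicate 1. The Dsg2 share difference ranged from -15.9 to -10.9 percentage points, that of Dsc2 from -3.72 to -2.13 and that of Pkp2 from 0.482 to 1.92 when single samples were left out, and without length scaling they were -10.2, -3.14 and 1.44. With the replicate block, which the data did not show to pair samples, 1769 genes were higher and 1422 lower, and 13 desmosomal genes were higher, Dsg1b being added. Counts near 0 limit Lor, Ivl, Ly6d and Cdsn, for which no change could be called at this depth.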
